A study of Mus musculus with 2 samples.

Results

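Interferons are signalling proteins through which cells answer infection and inflammation, and their target genes were followed here through 8 genes of mouse gut stroma: Cxcl9, Cxcl10, Iigp1, Irf1, B2m, H2-K1, H2-D1 and Tap1. The genes were picked by name for their place in the interferon response and in MHC class I antigen presentation, not by a measured value. Earlier results of these data were known when they were chosen. All 8 were listed among the 16381 genes of the colon library and the 18262 genes of the small intestine library, and so among the 16098 genes in both. Both libraries came from healthy, untreated mice and held live stromal cells sorted as negative for CD45 and EpCAM, the surface proteins of immune and epithelial cells. Enzymes were applied to colon tissue for 60 minutes and to small intestinal tissue for 45. Strain, sex, age and number of mice were not given in the labels. Each tissue had 1 library, so no difference carries a replicate check or a p-value, and every interval covers counting error only.

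Interferons act through surface receptors and JAK kinases, which pass the signal on to the nucleus. IRF1 is a transcription factor that is itself induced by interferon gamma and switches on further target genes. Cxcl9 and Cxcl10 encode secreted chemokines that draw T cells bearing the receptor CXCR3, and Iigp1 encodes a GTPase that attacks the vacuoles of intracellular parasites. H2-K1 and H2-D1 encode the classical class I heavy chains, B2m the light chain they share, and Tap1 a subunit of the transporter that loads them with peptides. Class I molecules are made by nearly all nucleated cells, while the chemokines and Iigp1 depend more strongly on an interferon signal.

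The upstream sequences of 6 members are shown. That of Tap1, which held none of the motifs below, is described without its letters, and Iigp1 had no entry. Each is the 250 bases before the annotated start of the gene's first entry, from RefSeq on GRCm38.p6, written 5′ to 3′ on the gene's own strand. Capitals mark every match, on either strand, to 4 motifs: the core of the interferon-stimulated response element (ISRE, GAAANNGAA), the gamma-activated site (GAS, TTCNNNGAA), the TATA box (TATAAA) and the NF-kB consensus.
Irf1 (chr11:53769764-53770013, plus strand): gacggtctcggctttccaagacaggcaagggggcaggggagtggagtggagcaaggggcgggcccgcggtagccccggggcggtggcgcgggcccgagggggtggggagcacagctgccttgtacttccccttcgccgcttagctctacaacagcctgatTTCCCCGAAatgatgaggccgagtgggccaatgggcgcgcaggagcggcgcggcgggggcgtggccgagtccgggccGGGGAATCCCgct
Cxcl9 (chr5:92328080-92328329, minus strand): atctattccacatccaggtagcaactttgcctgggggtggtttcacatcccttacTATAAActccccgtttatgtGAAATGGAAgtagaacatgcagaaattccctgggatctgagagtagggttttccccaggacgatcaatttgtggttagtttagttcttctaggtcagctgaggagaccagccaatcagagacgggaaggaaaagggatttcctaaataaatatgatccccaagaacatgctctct
Cxcl10 (chr5:92348890-92349139, minus strand): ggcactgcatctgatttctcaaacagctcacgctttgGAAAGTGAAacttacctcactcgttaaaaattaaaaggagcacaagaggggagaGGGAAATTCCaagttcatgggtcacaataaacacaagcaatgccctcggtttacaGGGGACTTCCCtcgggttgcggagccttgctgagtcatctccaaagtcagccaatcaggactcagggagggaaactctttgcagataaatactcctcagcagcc
B2m (chr2:122147437-122147686, plus strand): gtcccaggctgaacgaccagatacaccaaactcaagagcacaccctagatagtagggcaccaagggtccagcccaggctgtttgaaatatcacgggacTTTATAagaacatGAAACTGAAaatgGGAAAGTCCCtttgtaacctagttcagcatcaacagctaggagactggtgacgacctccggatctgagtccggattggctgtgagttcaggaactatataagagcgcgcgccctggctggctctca
H2-K1 (chr17:34000348-34000597, minus strand): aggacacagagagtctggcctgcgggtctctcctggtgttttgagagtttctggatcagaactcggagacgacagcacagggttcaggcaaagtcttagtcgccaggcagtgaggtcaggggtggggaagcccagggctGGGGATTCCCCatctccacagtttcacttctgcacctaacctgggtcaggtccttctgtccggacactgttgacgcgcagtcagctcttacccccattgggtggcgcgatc
H2-D1 (chr17:35262844-35263093, plus strand): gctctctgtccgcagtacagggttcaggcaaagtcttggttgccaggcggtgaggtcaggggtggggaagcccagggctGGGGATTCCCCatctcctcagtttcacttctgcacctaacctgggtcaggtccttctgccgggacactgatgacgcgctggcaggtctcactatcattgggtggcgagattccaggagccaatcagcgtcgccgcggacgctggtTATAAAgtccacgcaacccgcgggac

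Of all 32851 promoter windows of this length, 7.13% held the ISRE core, 7.02% the GAS, 12.4% the TATA box and 7.25% the NF-kB consensus. The Irf1 window held a GAS whose pattern matches on both strands and an NF-kB match close to the start. The window of the second Irf1 entry, not shown, held none of the 4 motifs. Those of Cxcl9, Cxcl10 and B2m each held 1 ISRE core, and that of Cxcl10 also held NF-kB matches at 2 places. The H2-K1 and H2-D1 windows shared the same NF-kB letters, in which 2 matches overlap by all but 1 base. Neither held an exact match to the ISRE core letters. The H2-K1 window, 34000348 to 34000597, lies inside the gene's annotated span of 33996012 to 34000619. It is thus upstream of its entry's start but not of the whole gene. A TATA box letter string stood in the windows of Cxcl9, B2m (on the opposite strand) and H2-D1. The Tap1 window (chr17:34187306-34187555) held none of the 4 motifs, and it is also the upstream side of Psmb9, which runs the other way. A match is a description of letters and not evidence of binding. The lack of a match is not evidence that an element is absent, because variants of these letters were not searched. Iigp1 had no entry in the promoter table.

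The authors' labels gave 6 cell types with at least 50 cells in both libraries. They were CD81- fibroblasts (CD81- FBs), CD81+ trophocytes (fibroblasts found beneath the crypts), PDGFRa-high subepithelial myofibroblasts (SEMFs), lymphatic (LECs) and blood endothelial cells (BECs), and smooth muscle cells (SMCs). Levels are in CPM, a gene's summed UMIs (the molecules counted) scaled to the same total in every type. The libraries held 6018 and 9359 cells with a median of 6598 and 5943 UMIs, and shared 21 cell barcodes, 0.349% of the colon and 0.224% of the small intestinal cells. Marker sums went with the labels, except that SMCs of the small intestine carried CD81- FB markers at 9598 CPM, above the 9019.8 CPM of the CD81- FBs themselves, against 1401 CPM in colon SMCs. Epithelial markers summed to at most 3.71 CPM in any type. Immune markers summed to at most 43.4 CPM in the fibroblast types and SMCs. They reached 129.5 and 101 CPM in colon and small intestinal LECs, and 560.0 CPM in colon BECs, where 6 of 7 listed genes had UMIs, against 50.6 CPM in small intestinal BECs, where 4 of 8 did. Most of each endothelial sum was Cd74, which is also on the class II presentation list used below. Cd74 had 125 and 99.1 CPM in LECs and 382 and 48.4 CPM in BECs, colon first. The colon library also held 2700 cells in which Xist but no Y-linked gene had UMIs and 1751 in which the reverse was true. In the small intestine 6896 cells had Y-linked UMIs, but its table does not list Xist, so Xist cells cannot be counted there. Ratios over all colon cells thus set both kinds of cell against a library in which only Y-linked cells can be seen. Colon results are therefore also given for each kind of cell.

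The class I genes were detected in most cells of every type, from 70.4% for H2-D1 in colon SMCs upwards. They stood lower in the colon than in the small intestine in every fibroblast type, in LECs and in SMCs. B2m (chromosome 2, 122147687 to 122153082) had 871 CPM (95% interval 862 to 880.4) in colon fibroblasts, the 3 fibroblast labels pooled, and 1861 (1848 to 1874) in small intestinal ones. That is a log2 ratio of colon to small intestine of -1.10 (-1.11 to -1.08). H2-K1 (chromosome 17, 33996012 to 34000619) had 905 (895 to 914) and 2483 (2467 to 2498) CPM, a log2 ratio of -1.46 (-1.47 to -1.44). H2-D1, further along the same chromosome (35263094 to 35267497), had 975 (965 to 985) and 1831 (1818 to 1844) CPM, a log2 ratio of -0.91 (-0.93 to -0.89). The gap was therefore widest for H2-K1, and the intervals of the 3 ratios did not overlap. The median gene in fibroblasts had a log2 ratio of -0.15, so these gaps were not a shift shared by all genes. Class I heavy chain genes are alike in sequence, so how reads were divided among H2-K1, H2-D1 and the H2-Q genes is uncertain.

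Among single types the class I gap ranged from none for B2m in BECs to the widest for H2-K1 in SMCs. In CD81- FBs, B2m stood at 917 and 2009.5 CPM, in trophocytes at 861 and 1721 CPM, and in SEMFs at 726 and 1724 CPM for colon and small intestine. In LECs it stood at 1693 and 2449 CPM and in SMCs at 407 and 1568 CPM. BECs were the exception, with 1579.7 (1433 to 1737) and 1576 (1524 to 1629) CPM, which overlap. H2-D1 repeated this in BECs at 1628 and 1626 CPM, a log2 ratio of 0.00 (-0.14 to 0.15), and H2-K1 differed there by -0.29 (-0.43 to -0.15). This changed with the kind of colon cell. H2-D1 lay at -0.60 (-0.99 to -0.23) with the 11 Y-linked BECs and at 0.23 (0.02 to 0.44) with the 22 Xist BECs. In the same order H2-K1 lay at -0.69 (-1.04 to -0.36) and -0.06 (-0.27 to 0.14), and B2m at 0.05 (-0.26 to 0.35) and 0.29 (0.07 to 0.49). Colon BECs also had the highest immune marker sum, most of it from Cd74, and the part of immune cells in these levels was not tested. SMCs showed the widest gap, with H2-K1 at 258 (223 to 296) in colon cells and 1747 (1699 to 1797) CPM in small intestinal ones, with -2.76 (-2.97 to -2.56) as log2 ratio. The label of these small intestinal SMCs also covered the CD81- FB markers given above, whose part in this ratio was not tested.

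H2-K1 in the remaining types stood at 982 and 2683 CPM in CD81- FBs, 738 and 2268 in trophocytes, 789 and 2358 in SEMFs and 1453 and 3501 in LECs, in the order colon, small intestine. H2-D1 stood at 1064 and 1984 CPM in CD81- FBs, 824 and 1710.0 in trophocytes, 809 and 1639.6 in SEMFs, 1662 and 2376 in LECs and 333 and 1414 in SMCs. In the small intestine LECs were the top type for all 3 genes, above CD81- FBs with intervals apart. In the colon the 2 endothelial types led, and for B2m and H2-D1 their intervals overlapped, so LECs and BECs could not be told apart there. SMCs were the lowest type for H2-K1 and H2-D1 in both tissues. For B2m they were lowest in the colon and overlapped BECs in the small intestine.

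Detection followed the level. H2-K1 was found in 93.8% of cells (93.1 to 94.4) of the colon and 99.5% of cells (99.3 to 99.7) of the small intestinal fibroblasts, at a median of 6707 and 7018 UMIs per cell. Thinned to 2000 UMIs per cell the shares were 72.0% and 96.0%. Most fibroblasts of both tissues therefore held the transcript.

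Tap1 (chromosome 17, 34187556 to 34197225), which brings peptides to the class I chains, had few UMIs and went the same way. It had 30.5 CPM (95% interval 28.8 to 32.3) in colon and 54.3 (52.1 to 56.6) in small intestinal fibroblasts, a log2 ratio of -0.83 (-0.94 to -0.73). By type, the colon and small intestinal levels were 34.4 and 63.7 CPM in CD81- FBs, 19.0 and 41.7 in trophocytes, 27.6 and 54.6 in SEMFs, 40.4 and 90.3 in LECs and 15.5 and 46.3 in SMCs. In BECs it had 19 and 126 UMIs, 70.5 and 57.5 CPM, a log2 ratio of 0.29 (-0.49 to 1.00), so no difference was detectable at this depth. LECs were its highest small intestinal type, with an interval apart from that of CD81- FBs, and the other 5 types followed as a chain of overlapping intervals. In the colon BECs, LECs and CD81- FBs formed such a chain at the top.

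**Figure D1:**
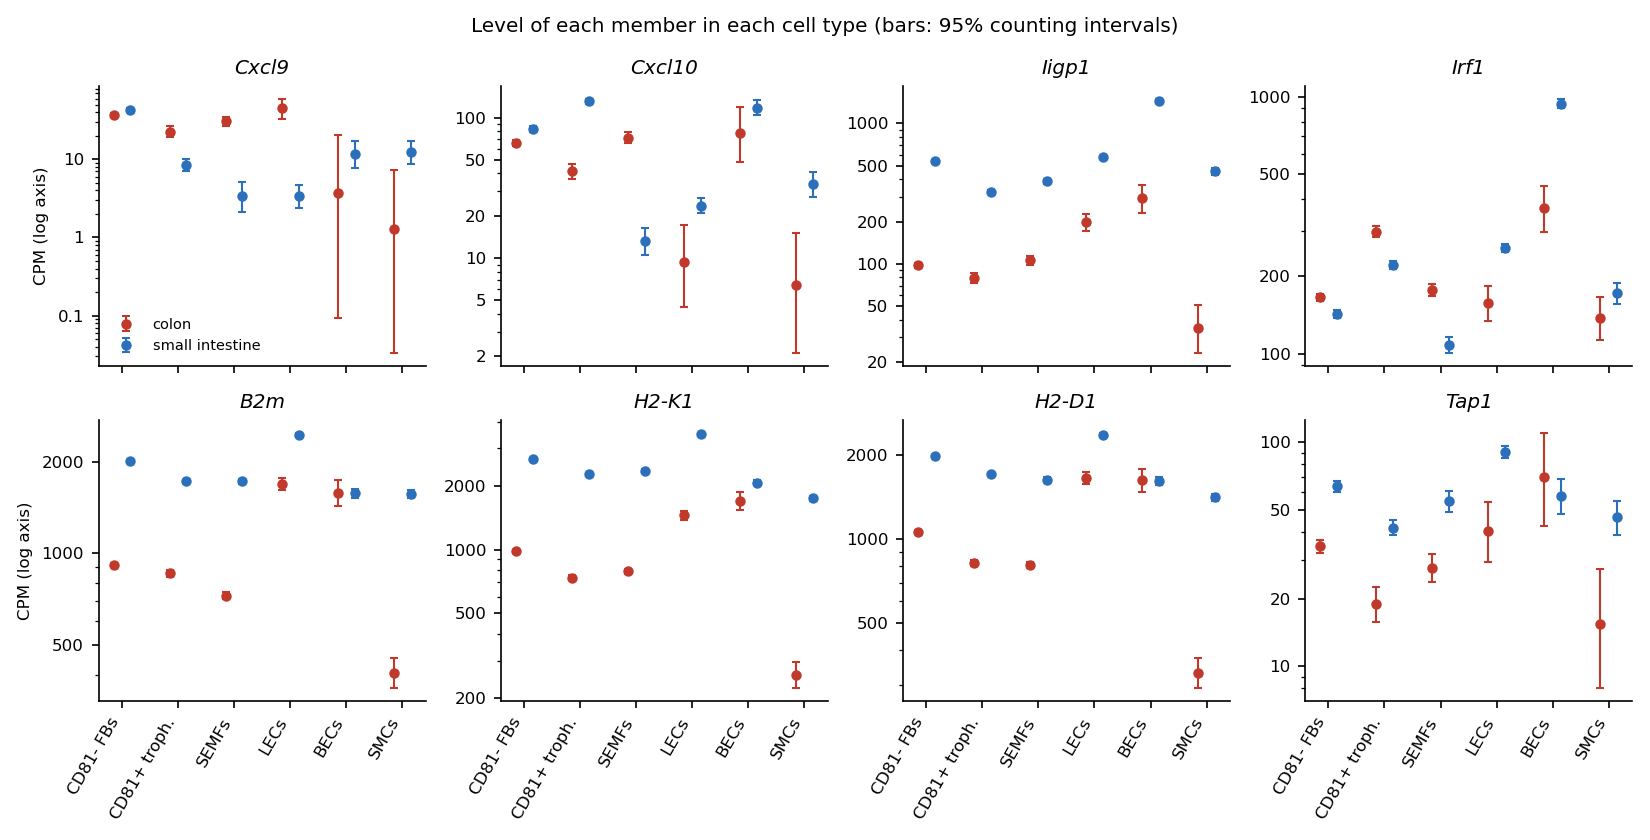
Level of each of the 8 genes in 6 cell types of the colon (red) and the small intestine (blue), in CPM on a log axis that differs between panels. Points are 1 library each and bars are 95% counting intervals; in CD81- FBs, for example, H2-K1 stood at 982 CPM in the colon against 2683 CPM, and in BECs the 2 B2m points coincide.

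Iigp1 (chromosome 18, 60373616 to 60392634) had the largest tissue gap of the 8 genes in pooled fibroblasts. It had 96.4 CPM (95% interval 93.4 to 99.6) in colon cells and 439.7 (433 to 446) in small intestinal ones, giving a log2 ratio of -2.19 (-2.24 to -2.14). Unlike the class I genes, it was not detected in most colon cells: 19.3% of cells (18.3 to 20.4) among colon fibroblasts held a UMI, and 56.8% of cells (55.5 to 58.1) among small intestinal ones did. At 2000 UMIs per cell the shares were 10.2% and 35.6%. The lowest share of any type was 9.60% in colon SMCs, at a median of 5526 UMIs per cell.

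The direction held in each of the 6 types. In CD81- FBs Iigp1 had 97.9 and 541 (531 to 551) CPM, in trophocytes 79.3 (72.5 to 86.5) and 327 (318 to 337), and in SEMFs 106 (98.8 to 114) and 386 (371 to 402), colon first. In LECs it had 197 (171 to 226) and 575 (561 to 589) CPM and in SMCs 35.0 (27 UMIs) and 457 (432 to 483). BECs were its highest type in both tissues, with 293 (232 to 365) and 1447 (1397 to 1499) CPM. LECs came next in both. In the colon SEMFs and CD81- FBs overlapped below them, while in the small intestine all 6 types were apart.

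Within BECs, Iigp1 was higher in cells with a venous label or marker. Of the 79 Iigp1 UMIs of colon BECs, the 4 cells labelled VenECs held 33, a level of 1375 CPM (946 to 1931), against 198 CPM (144 to 265) in the 45 cells labelled CapECs. Small intestinal BECs carry no finer label, and they were divided by Selp, the P-selectin gene of venules, a split chosen after these values were seen. The 194 cells with a Selp UMI had 2079.8 CPM (1994 to 2168) of Iigp1 and the 330 without had 842 CPM (789 to 897). The Selp cells were deeper, with a median of 5120.5 against 2905.5 UMIs. Irf1 split the same way, with 1319.7 and 577 CPM in the small intestine and 958 and 326 CPM in VenECs and CapECs. Single cells weigh heavily in these colon values: 1 VenEC held 15 of 23 Irf1 UMIs and 1 held 18 of 33 Iigp1 UMIs, and 1 CapEC held 23 of 45 Iigp1 UMIs. The class I genes differed little in the small intestine. Their log2 ratios between Selp and other cells were 0.13 (0.03 to 0.23) for B2m, 0.14 (0.06 to 0.23) for H2-K1 and 0.07 (-0.02 to 0.17) for H2-D1. Set against small intestinal BECs without Selp, colon CapECs still had less Iigp1, a log2 ratio of -2.09 (-2.55 to -1.66), while that of Irf1 shrank from -1.36 to -0.82 (-1.19 to -0.48).

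Irf1 (chromosome 11, 53770014 to 53778374), the transcription factor of the set, did not share the tissue gap of the class I genes and Iigp1. In fibroblasts it had 189.7 CPM (95% interval 185 to 194) in colon cells and 166 (162 to 169.6) in small intestinal ones, slightly higher in the colon at a log2 ratio of 0.20 (0.15 to 0.24). The fibroblast types had 166 (161 to 171) and 143 (138 to 148) CPM (CD81- FBs), 299 (285 to 312) and 221 (214 to 229) CPM (trophocytes) and 177 (168 to 187) and 108 (100.1 to 116) CPM (SEMFs), colon first. All 3 were higher in the colon with intervals apart, by at most 0.71 on the log2 scale. Endothelial cells went the other way, with 157 (134 to 182) and 258 (248 to 267) CPM in LECs and 367 (298 to 447) and 940.1 (900.0 to 982) CPM in BECs. SMCs had 137 (112 to 166) and 171 (156 to 187) CPM, whose intervals overlap, though that of the log2 ratio, -0.32 (-0.64 to -0.01), lay just below 0. BECs were the top type in the small intestine, 940.1 against 258 CPM in LECs, the next type. In the colon they overlapped trophocytes, and SEMFs, CD81- FBs, LECs and SMCs formed a chain of overlapping intervals below.

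The chemokines were the most unevenly spread members in fibroblasts, where a few cells held most of their transcripts. Iigp1 came next, with 32.4% of its UMIs in the top 1% of colon fibroblasts and 12.9% in the small intestine. Cxcl9 (chromosome 5, 92321331 to 92328079) had 33.4 CPM (95% interval 31.6 to 35.3) in colon fibroblasts and 24.4 (22.9 to 25.9) in small intestinal ones, a log2 ratio of 0.45 (0.33 to 0.57). It was found in 2.73% of cells (2.32 to 3.19) and 2.69% of cells (2.29 to 3.13). In the colon 12 of 5611 fibroblasts held 50% of its 1287 UMIs, and in the small intestine 11 of 5845 held 50% of 1017. The lowest share of any type, 0.36% in small intestinal LECs, was found at a median of 4118 UMIs per cell.

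By type, Cxcl9 had 37.0 (34.7 to 39.5) and 43.1 (40.2 to 46.0) CPM in CD81- FBs, colon first, a small difference of -0.22 (-0.35 to -0.08) on the log2 scale. In trophocytes it had 22.6 (19.1 to 26.6) and 8.45 (7.04 to 10.1) CPM and in SEMFs 30.7 (26.8 to 34.9) and 3.37 (2.11 to 5.11) CPM. SEMFs thus had a log2 ratio of 3.18 (2.55 to 3.89), but 1 colon cell held 94 of the 228 UMIs, and 21 colon and 12 small intestinal SEMFs were positive. In trophocytes 1 cell held 62 of 144 UMIs in the colon and 1 held 57 of 127 in the small intestine. In LECs the level was 45.1 (33.2 to 59.7) and 3.39 (2.40 to 4.65) CPM, a log2 ratio of 3.73 (3.09 to 4.39), with 1 colon cell holding 33 of 48 UMIs. Without the 5% of cells with the most UMIs the LEC ratio turned to -0.82. BECs and SMCs of the colon had 1 Cxcl9 UMI each, against 26 and 35 in the small intestine. The leading types of the colon (LECs, CD81- FBs and SEMFs) overlapped in a chain, and only in the small intestine did 1 type, CD81- FBs, stand above the next with intervals apart.

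Cxcl10, beside Cxcl9 on chromosome 5 (92346638 to 92348889), was found in more cells. Fibroblasts had 63.2 CPM (95% interval 60.7 to 65.8) in colon cells and 88.9 (86.0 to 91.8) in small intestinal ones, with a log2 ratio of -0.49 (-0.57 to -0.42), in 8.59% and 10.5% of cells. The subtypes went opposite ways. Trophocytes had 41.6 (36.8 to 46.9) and 130.1 (124 to 136) CPM, colon first, with a log2 ratio of -1.64 (-1.83 to -1.46). SEMFs had 72.1 (66.1 to 78.4) and 13.2 (10.5 to 16.3) CPM, a log2 ratio of 2.45 (2.12 to 2.80), and positive SEMFs numbered 82 of 1105 in the colon and 23 of 1109 in the small intestine. CD81- FBs lay between, at 66.1 and 82.7 CPM. LECs had 10 and 264 UMIs (9.39 and 23.6 CPM) and SMCs 5 and 94 UMIs (6.47 and 33.5 CPM), both lower in the colon.

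In BECs the Cxcl10 level was 77.9 (48.2 to 119) and 117 (103 to 132) CPM, colon first. The colon value rests on 1 cell with 20 of 21 UMIs, and in the small intestine the cells with a Selp UMI held 227 of 257. The highest small intestinal type was trophocytes, overlapping BECs, and SEMFs were the lowest. In the colon BECs, SEMFs and CD81- FBs overlapped at the top.

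**Figure D2:**
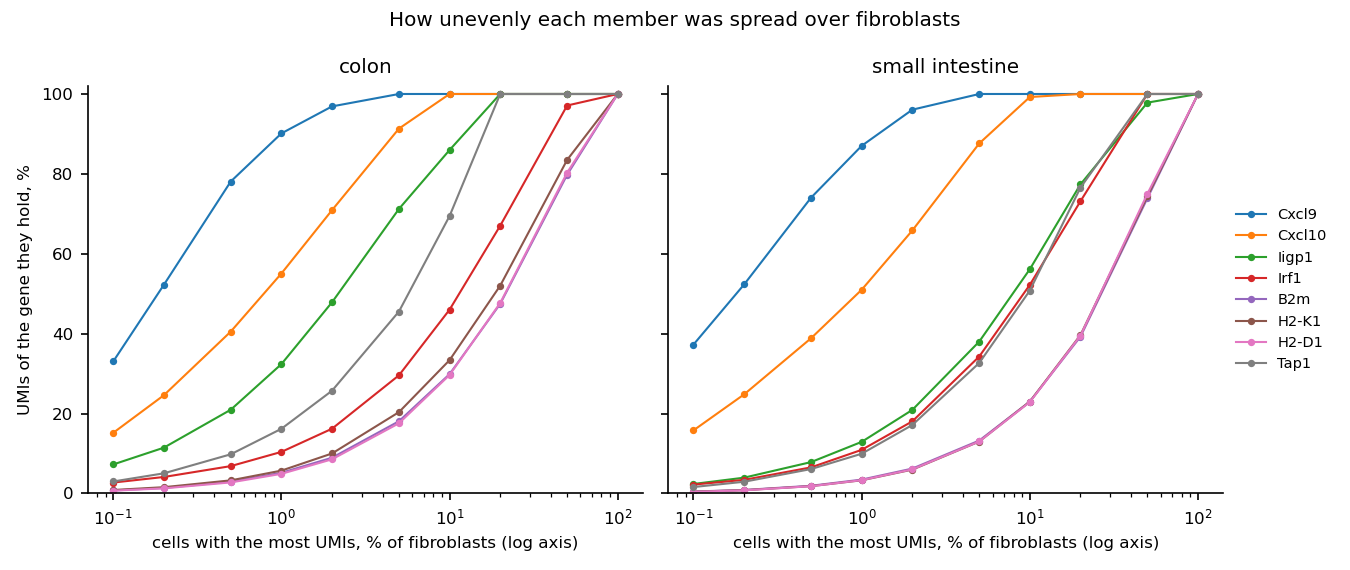
Share of each gene's UMIs (y axis, %) held by the fibroblasts with the most UMIs of that gene (x axis, % of fibroblasts, log axis), for the colon (left) and the small intestine (right), 1 library each. The top 1% of cells held 90.1% and 87.0% of the Cxcl9 UMIs, 55.1% and 51.0% of Cxcl10 and 5.16% and 3.45% of B2m, whose line lies under that of H2-D1.

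Over pooled fibroblasts, the rare chemokine cells overlapped. Of the 153 colon fibroblasts with a Cxcl9 UMI, 28.1% (95% binomial interval 21.1 to 35.9) also had Cxcl10, against 8.04% of the others, and of the 157 in the small intestine 28.0% (21.2 to 35.7) against 10.0%. The 43 and 44 cells with both held 48.6% and 51.4% of all Cxcl9 UMIs. By type, CD81- FBs showed the same, with 29.8% against 8.12% in the colon and 26.8% against 9.87% in the small intestine. Colon trophocytes showed no excess: 9.09% (0.23 to 41.3) of only 11 Cxcl9 cells had Cxcl10, against 9.03% of the others. Cells with a Cxcl9 UMI also carried more of the other members. In colon fibroblasts Iigp1 was 5.01-fold, Tap1 3.72-fold, H2-K1 2.23-fold, B2m 2.08-fold and H2-D1 1.90-fold the CPM of cells without one. In small intestinal fibroblasts the same ratios were 1.93 for Iigp1, 2.12 for Tap1, 1.34 for H2-K1, 1.33 for B2m and 1.27 for H2-D1. Irf1 was near level in both, at 1.20 and 0.949. Of the Cxcl9 UMIs of colon fibroblasts, 1039 lay in Xist cells and 143 in Y-linked cells. Xist cells also had more Iigp1, Tap1 and class I transcripts, and the part of this in the colon ratios was not tested. The summed immune markers stood at 1.46 times the level of negative cells in the colon and 0.954 times in the small intestine, and the pan-leukocyte gene Ptprc had no UMI in the Cxcl9 cells of either tissue. Median depth was 7630 against 6686 UMIs in the colon and 7750 against 6991 in the small intestine.

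Past a fold of 2, that is 1 on the log2 scale, 26 of the 48 pairs of member and type were lower in the colon and 4 were higher. In pooled fibroblasts 3 members were past it downwards (Iigp1, H2-K1 and B2m) and none upwards, where 10.2% of the genes tested were past it downwards and 9.75% upwards. Genes tested had at least 20 UMIs in both libraries together. By type the members lower in the colon numbered 3 of 8 in CD81- FBs (background 12.1%), 5 for trophocytes (9.8%), 4 for SEMFs (16.6%), 4 for LECs (15.7%), 3 for BECs (18.8%) and 7 for SMCs (20.7%). Those higher in the colon were 1 trophocyte gene (background 7.92%), 2 SEMF genes (8.41%) and 1 LEC gene (7.09%), with 0 for CD81- FBs (9.71%), BECs (7.18%) and SMCs (5.03%). All 4 that were higher were chemokines. With Y-linked colon cells only, none of them was past 1, and Cxcl9 had no UMI in the Y-linked LECs. With 8 members, a count of 0 or 1 is close to these backgrounds. Cxcl9 is among the 3 in BECs and the 7 in SMCs, on 1 colon UMI each. In BECs the interval of its log2 ratio, -7.03 to 0.93, reached past 0, so the count of 3 there is not firmly above the background.

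**Figure D3:**
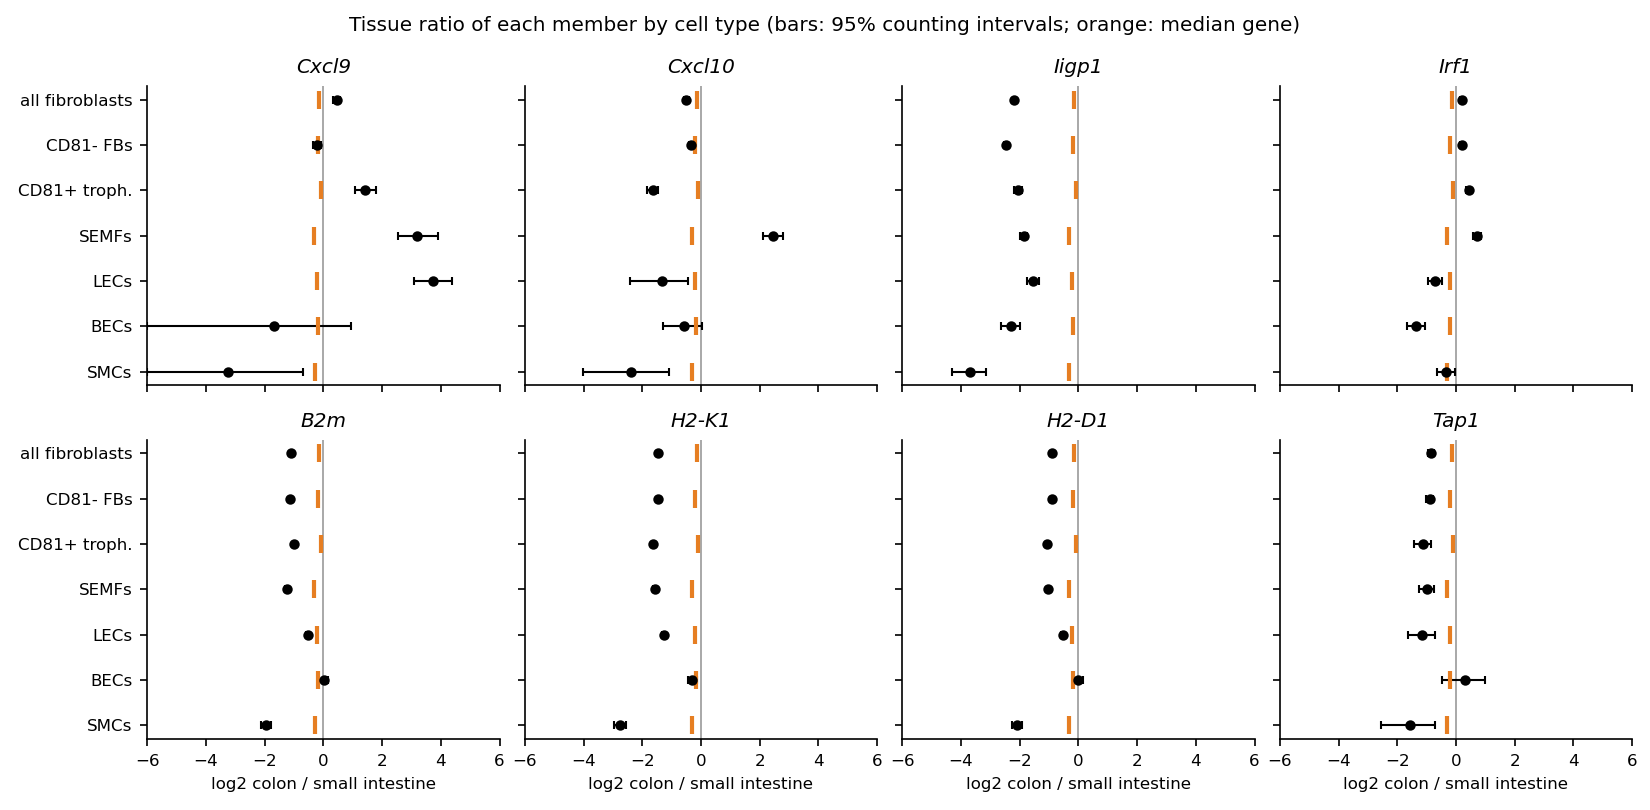
Log2 ratio of colon to small intestine for the 8 genes in pooled fibroblasts and 6 cell types; black points are the ratios, bars 95% counting intervals (drawn to -6 where they run further) and orange ticks the median gene of the type. Iigp1 and H2-K1 lie left of 0 in all 7 groups, B2m and H2-D1 do so except in BECs, and Cxcl9 and Cxcl10 fall on both sides.

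The highest type was endothelial for most members. In the colon 3 of the 8 peaked in LECs, where 19.6% of all genes did, and 5 in BECs, where 22.7% did. In the small intestine 4 peaked in LECs (background 19.9%) and 2, Iigp1 and Irf1, in BECs (background 18%). The 2 others were Cxcl9, highest in CD81- FBs, and Cxcl10, highest in trophocytes. When the single richest cell of each type was left out, the highest colon type of Cxcl9 became CD81- FBs and that of Cxcl10 became SEMFs. With Y-linked colon cells only, Cxcl9 was highest in CD81- FBs, Cxcl10 in trophocytes and B2m in BECs.

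Colon fibroblasts with Xist UMIs had more of 7 of the 8 members than those with Y-linked UMIs. H2-K1 had 1139 CPM in the 2541 Xist cells and 632 CPM in the 1637 Y-linked cells, a log2 ratio of 0.85 (0.81 to 0.89), B2m 1028 and 686 CPM and H2-D1 1153 and 757 CPM. Tap1 followed with 38.2 and 22.5 CPM. The ratio was largest for Cxcl9, Iigp1 and Cxcl10: Iigp1 had 130.3 and 54.3 CPM, a log2 ratio of 1.26 (1.14 to 1.39), Cxcl10 1.22 (1.07 to 1.38) and Cxcl9 2.19 (1.94 to 2.45). Irf1 had 196 and 186 CPM, a log2 ratio of 0.08 whose interval reached 0. Past 1 on the log2 scale, 3 of 8 members were higher in Xist cells, where 1.23% of all genes tested were. The median gene had a log2 ratio of -0.02, and the median depth was 7064 and 6806 UMIs per cell. Sex, animal and preparation cannot be told apart here, because the labels do not say which mice were pooled.

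Against the small intestine, both kinds of colon fibroblast kept the class I and Iigp1 gap, which differed in size. With Y-linked cells only, the log2 ratio was -3.02 for Iigp1, -1.97 for H2-K1, -1.44 for B2m and -1.27 for H2-D1. With Xist cells only it was -1.76, -1.12, -0.86 and -0.67 in the same order. The sign of Cxcl9 turned with the kind of cell, from -0.98 (-1.24 to -0.72) to 1.22 (1.09 to 1.34). For Cxcl10 the ratio was -1.28 (-1.43 to -1.14) with Y-linked cells and -0.06 (-0.15 to 0.02) with Xist cells. The SEMF result rests on Xist cells in the same way: Cxcl9 had 200 UMIs in Xist SEMFs and 4 in Y-linked ones, and Cxcl10 412 and 51. With Y-linked cells only, the SEMF ratio to the small intestine was -0.96 for Cxcl9 and 0.75 (0.22 to 1.27) for Cxcl10, and the trophocyte ratio of Cxcl9 was -2.56. Trophocytes broke the pattern for Cxcl10, which was lower in their Xist cells by a log2 ratio of -0.58 (-0.97 to -0.20). In BECs Iigp1 was lower in Xist cells, with 16 UMIs in 22 cells against 54 in 11. The VenEC with 18 and the CapEC with 23 Iigp1 UMIs are among those 11, so single cells hold most of the 54.

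**Figure D4:**
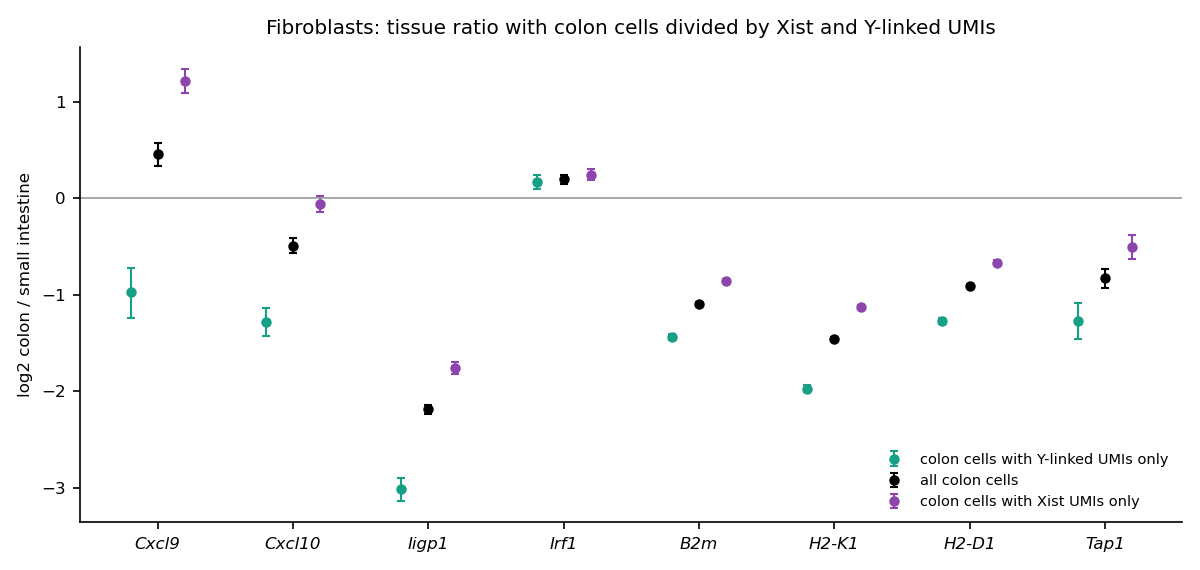
Log2 ratio of colon to small intestine in pooled fibroblasts for the 8 genes, with colon cells that have Y-linked UMIs only (green), all colon cells (black) or Xist UMIs only (purple), each against the same small intestinal library; bars are 95% counting intervals. The green points lie below the purple ones for every gene, by 2.19 for Cxcl9 and by 0.08 for Irf1, and Cxcl9 is the gene whose green and purple points sit on opposite sides of 0.

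Which members rise and fall together from cell to cell was described by Pearson correlations of log values within a type, for genes found in at least 5% of its cells and types of at least 200 cells. These are descriptions over cells of 1 library that share each cell's total in the denominator, and weak values in sparse counts are not findings. The class I chains moved together in all 10 sets of type and tissue. In the CD81- FBs, r between H2-K1 and H2-D1 was 0.54 over 3631 colon cells and 0.51 over 2823 small intestinal cells. That of B2m and H2-K1 was 0.48 and 0.49, and that of B2m and H2-D1 was 0.46 and 0.47. Over the 10 sets these 3 pairs ran from 0.29 in small intestinal LECs to 0.62 in small intestinal trophocytes. The median correlation of a member with all other genes was at most 0.023 in any set. Thinning to 2000 UMIs lowered the median of the 3 pairs in CD81- FBs to 0.32 and 0.28, and it was 0.38 within Y-linked and 0.55 within Xist colon cells.

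Ranked against up to 9698 genes, H2-K1 was the closest gene to B2m in 10 of 10 sets. H2-Q7, another class I heavy chain, was among the 5 closest to H2-K1 in 8 of the 10: its r with H2-K1 in CD81- FBs was 0.49 in the colon and 0.39 in the small intestine. Reads divided between these near-identical genes were not tested for their part in such values. B2m lies on another chromosome.

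In CD81- FBs Iigp1 and Tap1 had higher r with other interferon targets than with the class I chains. There the genes closest to Iigp1 were Igtp (0.28), Ifi47 (0.24) and Gm4951 (0.24) in the colon and Igtp (0.33), Irgm2 (0.33) and Gm4951 (0.30) in the small intestine. Igtp, Ifi47 and Irgm2 encode GTPases of the same interferon-induced family, and Gm4951 lies near Iigp1 on the same chromosome. With the class I chains Iigp1 had a median r of 0.20 in the colon and 0.15 in the small intestine. With the sum of the interferon gamma response list it had 0.21 and 0.27, and with that of the type I list 0.20 and 0.12. The gene closest to Tap1 was Iigp1 in both tissues (0.21 and 0.21). Tap1 had 0.17 and 0.19 with the interferon gamma sum, against 0.11 to 0.14 and 0.10 to 0.15 with the class I chains. In small intestinal BECs the closest to Iigp1 were Adgrg6 (0.47), Selp (0.47) and Actn1 (0.45), so Selp, used for the split above, was among them. Tap1 in those BECs had r = 0.06 with Iigp1, below its 0.12 to 0.16 with the class I chains.

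Irf1 was closest to a different set of genes. Its r with the class I chains was 0.04 to 0.05 in colon and 0.08 to 0.10 in small intestinal CD81- FBs, and at most 0.19 in any set. The genes closest to it in these cells were Btg2 (0.27), Egr1 (0.25) and Fos (0.23) in the colon and Fosb (0.38), Atf3 (0.35) and Junb (0.33) in the small intestine. These are immediate early genes, which are also known to rise while tissue is dissociated. With the sum of an immediate early and dissociation list Irf1 had r between 0.17 and 0.40 over the 10 sets. In CD81- FBs it had 0.26 in the colon and 0.36 in the small intestine, against -0.03 and 0.17 for B2m. Small intestinal SEMFs went the other way, with 0.17 for Irf1 against 0.25 for B2m, 0.21 for H2-K1 and 0.23 for H2-D1. In the other sets Irf1 had the higher value of Irf1 and B2m. Digestion took 60 minutes in the colon and 45 in the other tissue, and its part in the Irf1 levels was not tested. Cxcl10 was closest to Ccl2, the monocyte chemokine, in CD81- FBs of both tissues (0.27 and 0.32), and Cxcl9 was in too few cells to be ranked.

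**Figure D5:**
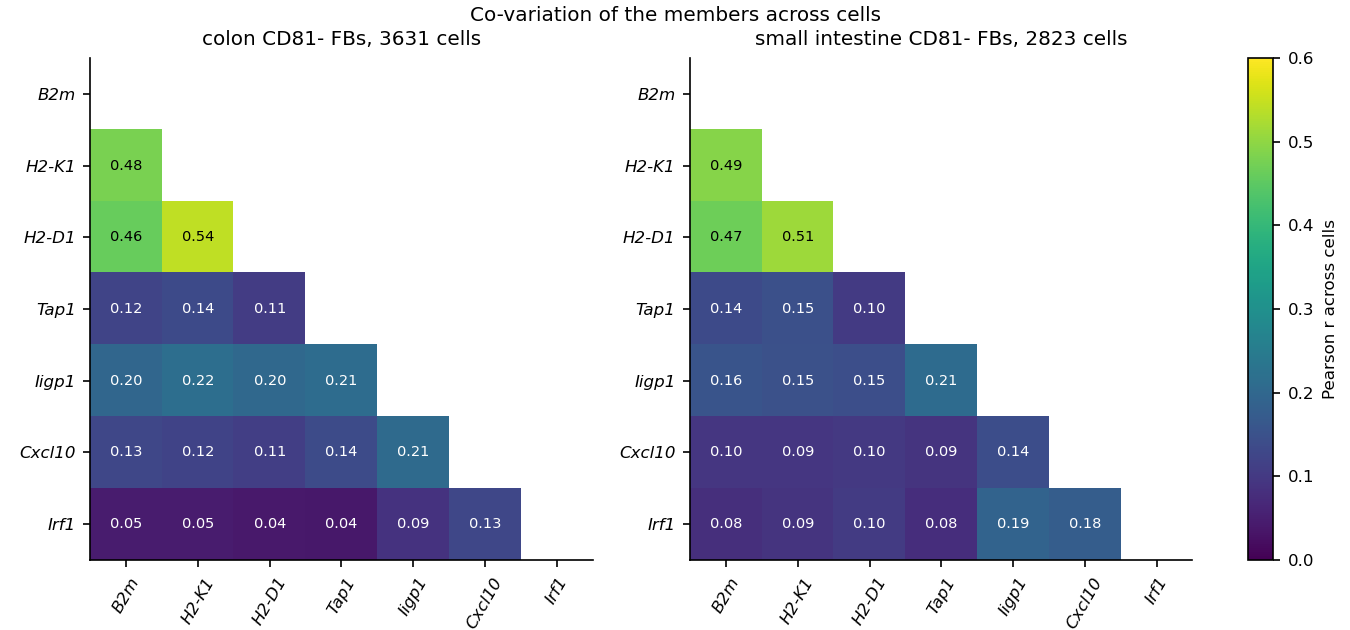
Pearson r across cells for each pair of 7 members in CD81- FBs of the colon (3631 cells, left) and the small intestine (2823 cells, right); colour and printed value give r, and Cxcl9 is left out because under 5% of cells held it. The B2m, H2-K1 and H2-D1 block runs from 0.46 to 0.54, and in the colon panel Irf1 has at most 0.05 with those 3.

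Across the 12 profiles of 6 types in 2 tissues, the levels of the class I chains were most like each other. By r of log2(CPM + 10) among 9367 genes, the closest to B2m were H2-D1 (0.99), H2-K1 (0.98) and Ptdss1 (0.96). H2-K1 was also close to Pik3c3 (0.98). The closest to Iigp1 were Sp100 (0.97), an interferon-induced nuclear protein gene, Gm4951 (0.97) and Hoxa5 (0.96). Those closest to Irf1 were Pnrc1 (0.96), Atp1b3 (0.96) and Zc3h12a (0.95), and to Tap1 Fbxw4 (0.97), Ciz1 (0.97) and H2-Q6 (0.96). For Cxcl9 and Cxcl10 the best values were lower, at 0.87 (Vmac) and 0.83 (Mcfd2). The 12 points come from 2 libraries, so genes that share a tissue gap share part of this likeness.

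The other genes of the pathway came from lists chosen for their roles. No interferon ligand on the list of 8 was listed for both libraries: Ifng had 4 UMIs and Ifnk 8 in the whole small intestine library. The 6 receptor chains had a median log2 ratio in pooled fibroblasts of -0.24 and none past 1 in either direction. Ifngr1, which binds interferon gamma, had 208 and 266 CPM and Ifnar1, of the type I receptor, 29.0 and 29.7 CPM. Ifngr1 was past 1 in SEMFs at -1.19 (-1.29 to -1.09) and in SMCs at -1.22. Jak1, a kinase that serves both kinds of receptor, had 292 and 299 CPM, a log2 ratio of -0.03, and was the most abundant gene of the signalling list.

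Target genes were lower in the colon as lists, beside a median gene of -0.15 and, over all genes tested in fibroblasts, 10.2% lower and 9.75% higher by at least 1. Of 31 type I response genes that passed, 13 were lower in the colon by at least 1 and none higher, with a median of -0.78. The most abundant, Ifitm3, a block to viral entry, had 1534 and 2398 CPM, and the extremes were Oas1a (0.675 and 5.99 CPM, -3.15) and Ifit2 (21.8 and 15.9 CPM, 0.46). Of 25 interferon gamma response genes 12 were lower and 1 higher, with a median of -0.94. Serping1, the complement C1 inhibitor, had 1353 and 1966 CPM, Gvin1, a large inducible GTPase, had the lowest ratio (1.64 and 7.43 CPM, -2.18), and the 1 higher was Icam1, an adhesion molecule (343 and 161 CPM, 1.09).

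The class I machinery differed less. Of 11 processing genes none passed 1, though all 11 intervals lay below 0, with a median of -0.33. Psmb9, an immunoproteasome subunit whose gene faces Tap1, had 54.4 and 103 CPM (-0.92), and the chaperone gene Calr had 443 and 478 CPM (-0.11). Of 12 other class I heavy chains 3 were lower, none higher, with a median of -0.50. H2-T23, which encodes the Qa-1 molecule, had 67.0 and 226 CPM (-1.75), H2-Q6 had 17.8 and 80.9 CPM (-2.18) and Mr1, which presents vitamin metabolites, was higher in the colon at 0.39. Class II presentation genes, at low levels, differed between fibroblast types. In pooled fibroblasts 4 of 7 were higher in the colon and in CD81- FBs 5 of 7, but in trophocytes none of 6 was higher and 4 were lower, with a median of -1.24. The most abundant in pooled fibroblasts, H2-DMa, had 12.3 and 11.1 CPM, and Cd74, also on the immune marker list, had 7.89 and 1.97 CPM (2.01).

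Of the immediate early and dissociation list, 4 of 18 genes were lower in the colon by at least 1 and 1 was higher, with a median of -0.20. Of the NF-kB response list, 3 of 13 were lower and none higher, with a median of -0.04. Over all genes tested these shares were 10.2% lower and 9.75% higher.

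The interferon gamma list was below 0 in each of the 6 types. Its median log2 ratio was -1.28 for CD81- FBs, -0.82 for trophocytes and -0.78 for SEMFs, beside median genes of -0.20, -0.09 and -0.31. It was -0.81 for LECs, -0.64 for BECs and -1.69 for SMCs, beside -0.20, -0.18 and -0.30. In SMCs all 21 genes that passed were lower in the colon by at least 1, where 20.7% of all genes tested were. The CD81- FB markers in the small intestinal SMCs move with this count, and their part in it was not tested. The class I processing list had 0.49 in BECs, the type in which B2m and H2-D1 were level over all colon cells, and -0.84 in SMCs. Within the colon, the interferon gamma list stood higher in Xist than Y-linked fibroblasts by a median of 0.56 over 24 genes, the processing list by 0.39 over 11 and the type I list by 0.21 over 28. The NF-kB response list stood lower, by a median of -0.25 over 13 genes.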

How the data were processed

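Live stromal cells of mouse colon and small intestine, 1 droplet library each, were analysed from the deposited tables. Per the submitters' processing notes, Cell Ranger 7.1.0, Seurat 4 and the genome build mm10 were used. The authors deposited raw UMI counts per gene and cell, which gave all main values; filters on cells and doublet removal are not given in the sources used here, and no doublet was removed. The authors also deposited natural log values, which equalled ln(1 + UMIs scaled to a fixed total per cell) within 1e-06, and their cell type labels. Counts were summed per type with Python 3.11.15, NumPy 2.4.6, pandas 2.3.3 and SciPy 1.17.1. CPM carry exact Poisson, shares Clopper-Pearson and log2 ratios exact conditional binomial 95% intervals. A count of 0 was set to a floor of 3 counts. Thinning drew 2000 UMIs per cell. The interval method was tested on simulated data. The members, gene lists, markers, motifs, alternatives and the split by Xist and Y-linked UMIs (4 Y-linked genes) were chosen with earlier results of these data known. From each list the genes named were the highest in fibroblasts and the largest ratio each way with at least 100 UMIs; likeness over profiles ranked genes with a mean of at least 10 CPM. Capillary, arterial and venous colon labels were pooled as BECs. Counts for the signalling list are not reported here. Libraries held 40684070 and 58134526 UMIs.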

Additional observations from a re-analysis of the deposited data

Results flagged for a closer look

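Cxcl10 differed between tissues in opposite directions by cell type: log2 ratios of colon to small intestine were 2.45 in SEMFs against -1.64 in trophocytes, -1.33 in LECs and -2.37 in SMCs. Cxcl9 did the same, with 1.42 in trophocytes, 3.18 in SEMFs and 3.73 in LECs against -3.27 in SMCs, where the colon had 1 UMI. In pooled fibroblasts Cxcl9 lay at -0.98 with Y-linked colon cells and at 1.22 with Xist colon cells. These differences between types and between kinds of cell were not tested, as a tissue is 1 library here. Signal was also present in labels too small to compare: 4 members had more than 3 UMIs in the 4 proliferating colon cells, 4 in the 8 colon cells of the pericyte labels and all 8 in the 24 proliferating small intestinal cells.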

How the results depend on the processing

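Of 33 ratios past 1 on the log2 scale in pooled fibroblasts and the 6 types, all kept their sign relative to the median gene, with means of per-cell CPM and with the deposited natural log values. Fewer stayed past 1: 27 of 33 relative to the median gene (B2m in fibroblasts moved to -0.95), 24 of 29 with Y-linked and 25 of 32 with Xist colon cells. On the natural log values, a different scale, 8 of 33 did. Of those with a value, 27 of 29 kept their sign with Y-linked and 32 of 32 with Xist colon cells, 32 of 32 without the top cell, 29 of 29 without the top 1% of cells, 32 of 33 without the 5% deepest and 32 of 32 without cells with an immune UMI. The exceptions were Cxcl9: -2.56 in trophocytes and -0.96 in SEMFs with Y-linked colon cells, and -0.82 in LECs without the 5% deepest cells, where 3 colon cells held 97.9% of the UMIs. The 4 pairs higher in the colon became 0 with Y-linked cells and 2 without the top 1% of cells. In fibroblasts, members past 1 and lower in the colon rose from 3 to 6 with Y-linked cells, and those higher from 0 to 1 with Xist cells. Type I response genes higher in the colon went from 0 to 1 with Y-linked cells. The median class I correlation in CD81- FBs fell from 0.48 to 0.38 with Y-linked cells and to 0.32 with thinning in the colon, and from 0.49 to 0.28 with thinning in the small intestine. With Y-linked cells 3 of 4 sets moved, most of all colon SEMFs from 0.47 to 0.28, and with thinning 8 of 10 did. Thinning leaves fewer UMIs per cell, and the cause of the other changes was not tested. The split by Xist within correlations and the Selp comparison were chosen after seeing the data. Ratios in colon BECs (53 cells) and SMCs (125 cells) rest on the least depth. No paired analysis was possible because each group had 1 library and the labels carry no replicate numbers.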

Other observations

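Cells of the small labels had these levels, 1 library each. In the 24 proliferating small intestinal cells H2-K1 stood at 4773 CPM, B2m at 2482, H2-D1 at 2564, Iigp1 at 364 and Tap1 at 182 CPM, with 1048, 545, 563, 80 and 40 UMIs. In the 8 colon cells of the pericyte labels Irf1 stood at 663 CPM (23 UMIs), B2m at 606 and H2-K1 at 375 CPM. The 4 proliferating colon cells had 1827 CPM of H2-K1 from 56 UMIs.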
